A study of Arabidopsis thaliana with 2 samples.

Results

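Histones and the proteins that place or modify them were measured as 9 genes of dissected Arabidopsis leaf margins. The members are the nuclear genes whose reference description contains "histone", "nucleosome assembly" or "chromatin assembly" (7 genes), with *HTB4* and *ASF1B* added by name (2 genes). They were taken from 13356 genes that have a probe set of their own in the probe annotation used here. In the reference 83 genes meet this rule, of which these 9 have a probe set annotated to them alone. A further 9 are annotated only to probe sets that several histone genes share, and for the other 65 no annotated probe set was used here. The members comprise 4 core histone genes (*HTB2*, *HTB4*, *HTR12* and *MGH3*), 2 linker histone genes (*HIS1-3* and *HON4*), 2 histone deacetylase genes (*HDA15* and *HDA7*) and 1 chaperone gene (*ASF1B*). These subgroups were assigned by keywords in the reference symbol and description alone. Each member was measured by 1 probe set.

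The arrays come from 1 group, Ler plants that carry *35S:miR319a*, which reduces the *CIN-TCP* genes, and *35S:amiR-NGA*, which reduces the *NGA* genes. Both transgenes are driven by the constitutive 35S promoter, and the genotype was taken from the study's methods, since the sample labels do not name it. The labels give growth at 23°C with 16 h light, and margins cut by hand from mature leaves. RNA of 2 biological replicates, called replicate 1 and replicate 2, was hybridized to 1 Affymetrix ATH1 array each, and leaf age in days is not given in the sources used here. The strip was cut with scissors, so the RNA came from every cell type of the outermost blade, and fewer cells of a type cannot be told apart from less RNA per cell. With 1 genotype and no wild-type margin, an effect of the transgenes on a histone gene could not be tested, and the values stand without p-values.

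Nuclear DNA is wound around octamers of the core histones H2A, H2B, H3 and H4, and linker histones of the H1 type bind the DNA between these units. Dividing cells must supply a full set of core histones for each new copy of the genome, and the bulk of this synthesis takes place during DNA replication. Variants are deposited outside this window or at particular places, and chaperones carry histones to the DNA. Deacetylases remove acetyl groups from histone tails, which is generally associated with lower transcription. In leaves, replicative histone supply is a known property of the cells that still copy their DNA, while variant histones are also made in differentiated cells.

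The values are MAS5 signals, which are linear intensities with 1 value for each probe set, and each array had a median of 50.0 over its 22810 probe sets. The upper quartile was 159.4 in replicate 1 and 157.8 in replicate 2, while the highest signal was 3141 and 7608. Signals of different probe sets are not on 1 scale of transcript number, so each gene was compared with itself in the other array and with a background bound. The bound is the 95th percentile of 6 genes of pollen, anther and root, and it was 7.21 in replicate 1 and 18.3 in replicate 2. A ratio of 3′ over 5′ signal, which reads RNA integrity and labelling, was higher in replicate 2 for all 3 control transcripts, at 8.10 and 14.3 for actin, 1.10 and 1.52 for GAPDH and 1.66 and 3.04 for ubiquitin. Genes of the lamina and of mesophyll exceeded the bound on either array, with the abaxial lamina gene *YAB3* at 503.2 and 387.9 and *RCA*, for Rubisco activase, at 1996 and 2887. The stem cell gene *CLV3* was below it in both.

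In both replicates 7 of the 9 members (77.8%) had a signal over the bound, against 60.1% of all 13356 genes. Both H2B genes, the centromeric H3 gene, both linker histone genes, *HDA15* and *ASF1B* passed. The sperm histone gene *MGH3* and *HDA7* were below the bound in both arrays. The median log2 signal of the members was 7.27 in replicate 1 and 7.88 in replicate 2, against 5.05 and 5.20 over all named genes, which describes the list only, because probe sets differ in brightness. With 9 members the difference from the background share rests on very few genes, and *MGH3* is itself 1 of the 6 genes that set the bound. The same 7 of the other 8 members passed when it was left out of the count, and 7 members passed when it was left out of the bound.

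**Figure D1:**
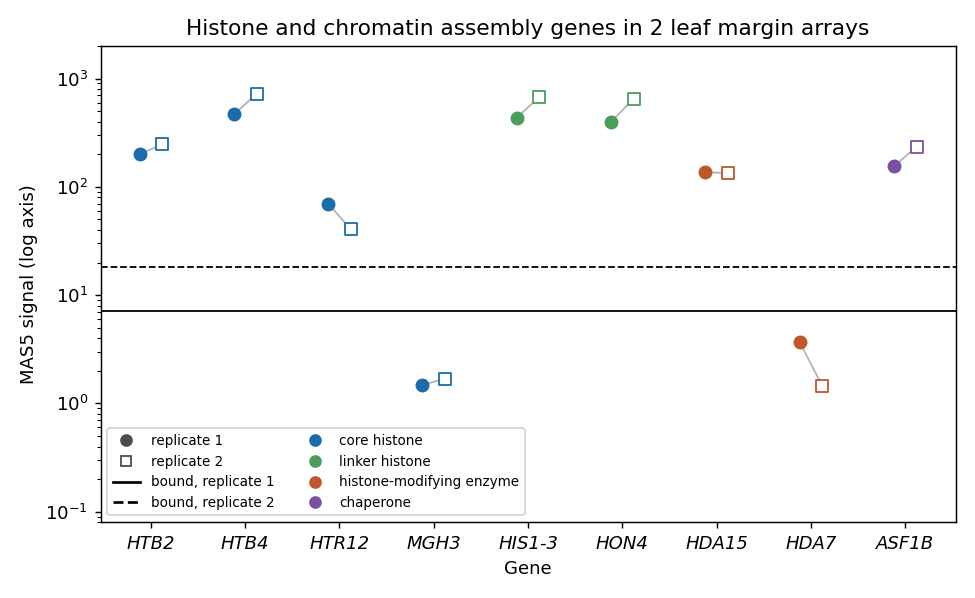
MAS5 signal (log axis) of the 9 genes in replicate 1 (filled circles) and replicate 2 (open squares), coloured by subgroup, with the background bound of each array (solid line 7.21, dashed line 18.3). *MGH3* and *HDA7* lie below both lines, and *HTR12* is the member above them that lies nearest to the bound, at 40.6 in replicate 2.

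Histone H2B forms a dimer with H2A at the outside of the nucleosome core, and its genes were above background in the margins. *HTB2* (AT5G22880) had a signal of 199.3 in replicate 1 and 247.4 in replicate 2, a mean of 223.4 ± 34.0 (SD, n = 2 arrays). *HTB4* (AT5G59910) was at 468.1 and 719.0, with a mean of 593.6 ± 177.4 (SD, n = 2). Both genes had the higher signal in replicate 2, *HTB4* by 1.54-fold and *HTB2* by 1.24-fold. Members of the H2B family are close copies in their coding sequence, and whether their probes also bind transcripts of other copies was not tested.

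The rule leaves out a further pair of H2B genes, *HTB1* and *HTB11*, whose reference entries carry only the symbol, and they were added here by symbol after other values had been seen. *HTB1* (AT1G07790) was at 445.3 and 460.7, a mean of 453.0 ± 10.9 (SD, n = 2). *HTB11* (AT3G46030) was at 259.3 and 315.3, a mean of 287.3 ± 39.6. All 4 H2B genes thus passed the bound in both replicates, against 60.1% of all 13356 genes. Each had the higher deposited signal in replicate 2, with ratios from 1.03-fold for *HTB1* to 1.54-fold for *HTB4*. Of all genes above the bound, 60.2% were higher in replicate 2 too. With 4 genes, no trait of H2B genes is read from these counts. After quantile normalization, which makes the distributions of the arrays equal, *HTB1* was instead slightly lower in replicate 2 (log2 ratio -0.14), and the other three remained higher.

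In gene order, 3 of these 4 H2B genes lie close to another core histone gene. Between *HTB4* and the H2A gene *HTA6* lie 4 protein-coding genes, and 5 lie between *HTB4* and AT5G59970, a gene annotated to the H4 probe sets that are shared between genes. *HTB1* is separated by 2 genes from AT1G07820, and *HTB11* by 4 genes from *HTB9* and by 9 from AT3G45930, where AT1G07820 and AT3G45930 are annotated to those H4 probe sets too. Between *HTB2* and the nearest core histone gene by this count, the H2A gene *HTA7*, lie 484 genes. *HTA6*, *HTA7* and *HTB9* were not analysed here.

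The H3 variant that marks centromeres, *HTR12* (AT1G01370, also called *CENH3*), passed the bound in both replicates but lay nearest to it among the members that did. This protein replaces H3 in the nucleosomes on which kinetochores form, and in Arabidopsis it is loaded mainly in G2, after replication. Its signal was 69.9 in replicate 1 and 40.6 in replicate 2, a mean of 55.2 ± 20.7 (SD, n = 2). Replicate 2 was lower, at 0.581 times replicate 1 and a log2 ratio of -0.78. Under 2 alternative bounds, the median of all probe sets (50.0 in both arrays) and the *B. subtilis* control probe sets (27.9 and 69.4), *HTR12* lay below the bound in replicate 2, and 6 of the 9 members passed.

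*MGH3* (AT1G19890), an H3 variant of the male gametes, was at 1.48 in replicate 1 and 1.70 in replicate 2, a mean of 1.59 ± 0.156 (SD, n = 2). It is a gene of sperm cells, which a leaf margin does not hold, and for that reason had been used to set the bound, so its place below it is no finding.

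Linker histones bind where DNA enters and leaves the nucleosome. *HIS1-3* (AT2G18050), an H1 variant known to be induced by drought and abscisic acid, was at 434.6 in replicate 1 and 677.1 in replicate 2, a mean of 555.9 ± 171.5 (SD, n = 2). *HON4* (AT3G18035) was at 399.7 and 650.9, a mean of 525.3 ± 177.6. It was grouped here only because the reference describes it as histone H1, and whether it acts as a linker histone was not tested. Both genes were above every bound tried in each array. Their ratios of replicate 2 over replicate 1 were close to each other, at 1.56-fold for *HIS1-3* and 1.63-fold for *HON4*, and on the log2 scale 0.64 and 0.70. Other linker histone genes were not analysed here.

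The deacetylase genes lay on opposite sides of the bound. *HDA15* (AT3G18520), which in seedlings acts with a phytochrome-interacting factor to repress chlorophyll synthesis genes, was at 136.5 in replicate 1 and 134.0 in replicate 2, a mean of 135.3 ± 1.72 (SD, n = 2). It was the member whose arrays differed least, with a ratio of 0.982, and 96.3% of the genes above the bound had a larger log2 ratio in either direction. *HDA7* (AT5G35600), a deacetylase known from the female gametophyte and embryo, was at 3.68 and 1.45, under the bounds of 7.21 and 18.3. With *EXPA7* and *EXPA18* left out, the bound of replicate 1 fell to 3.28 and *HDA7* exceeded it there but not in replicate 2. Since both of its signals were below the main bound, no ratio is read from them. Acetyltransferase, methyltransferase and demethylase genes were not among the members.

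The chaperone *ASF1B* (AT5G38110) hands dimers of H3 and H4 to the assembly factors that act behind the replication fork, and it acts redundantly with its close relative *ASF1A*. Its signal was 154.3 in replicate 1 and 235.7 in replicate 2, a mean of 195.0 ± 57.5 (SD, n = 2). *ASF1A*, which the reference lists as *SGA2* (AT1G66740) and which is no member, was at 141.3 and 201.5, a mean of 171.4 ± 42.6. Both genes of the pair were above background and had the higher signal in replicate 2, by 1.53-fold for *ASF1B* and 1.43-fold for *ASF1A*.

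Replicate 2 over replicate 1 is the comparison these arrays allow within a gene. Of the 7 members above the bound, 5 had the higher signal in replicate 2 (*HTB2*, *HTB4*, *HIS1-3*, *HON4* and *ASF1B*) and 2 the lower (*HTR12* and *HDA15*). Of all 8031 genes above the bound, 60.2% had the higher signal in replicate 2. None of the 7 members differed over 2-fold between the arrays, whereas 11.3% of those 8031 genes did, 8.38% upward and 2.93% downward. The median log2 ratio of the 7 members was 0.61, against 0.15 for all genes above the bound. Of the genes above the bound, 5.75% had a lower ratio than *HTR12* and 82.5% a lower ratio than *HON4*, the ends of the range.

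After quantile normalization the same 5 members were higher in replicate 2 and the same 2 lower, beside 55.8% of the 8033 genes above the bound on that scale that were higher. The log2 ratio of *HTB4* was then 0.40, that of *HIS1-3* 0.43, that of *HON4* 0.52 and that of *ASF1B* 0.60, while *HTR12* was at -0.79. The lower signal of *HTR12* therefore remained on both scales. It was only 2.22 times the bound in replicate 2, however, and 20.4% of the genes above the bound had a larger log2 ratio in either direction. No difference of *HTR12* between the arrays is read from these values. Deposited signals of genes that mark cell types of the leaf also differed between the arrays. The deposited signal of *SPCH*, which starts the stomatal lineage, was 439.7 in replicate 1 and 245.0 in replicate 2, that of the lamina growth gene *JAG* 173.5 and 303.5, and that of the antenna gene *LHCB4.1* 2105 and 3713. After quantile normalization their log2 ratios were -0.97 for *SPCH*, 0.77 for *JAG* and -0.07 for *LHCB4.1*, so the higher signal of *LHCB4.1* did not remain on that scale. The stomatal genes *FMA* (39.1 and 34.1) and *MUTE* (15.2 and 3.92, below the bound in replicate 2) were lower in replicate 2, like *SPCH*. The trichome gene *TRY* (32.4 and 68.8) was higher there. The directions of *FMA*, *MUTE* and *TRY* were the same on both scales. Another lamina gene, *YAB3* (503.2 and 387.9), and another antenna gene, *LHCB4.3* (70.1 and 53.1), were lower in replicate 2. Their log2 ratios after quantile normalization were -0.56 and -0.38. The lamina genes *JAG* and *YAB3* thus differed in direction on both scales. The antenna genes differed in direction only in deposited signals. After quantile normalization both antenna genes were lower in replicate 2, as was *RCA* (log2 ratio -0.28). The part of these marker genes in the ratios of the histone genes was not tested.

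**Figure D2:**
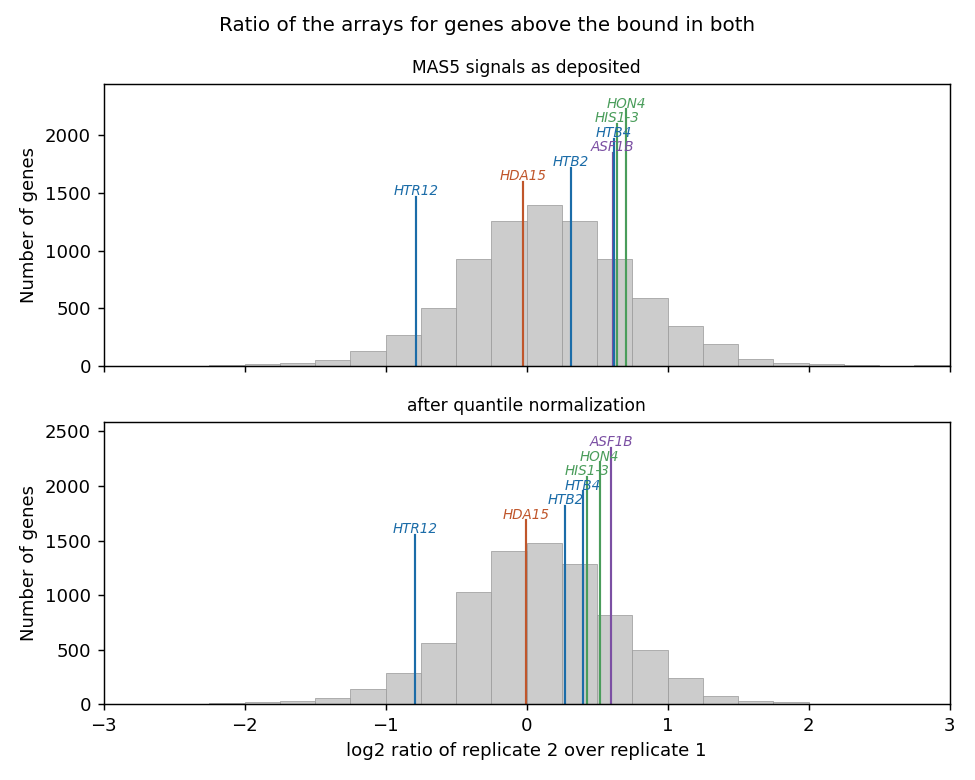
Number of genes (grey bars) by log2 ratio of replicate 2 over replicate 1, for the genes above the bound in both arrays, with deposited signals above and after quantile normalization below, and the 7 members above the bound as coloured lines. The axis runs from -3 to 3, which leaves out 25 genes above and 22 below. In both panels *HTR12* stands left of the bulk of genes and the H2B, linker histone and *ASF1B* lines stand right of the middle.

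Most H3 and H4 genes code for the same protein as their family members, and in the annotation they share probe sets, so no single gene is named from these. Of the 13 probe sets annotated to several genes with at least 1 described as a histone, 5 are annotated to the same 5 H3.1 genes, 3 to the same 3 H3.3 genes and 5 to the same 8 genes, of which the reference describes 1 as histone H4. H3.1 is the form built in at replication, while H3.3 is placed independently of replication, mostly at transcribed genes. All 13 were above the bound in both arrays. The background share of 60.1% is for the 13356 genes and includes no probe set annotated to several genes. How many of all 503 such probe sets passed was not tested, so no trait of histones is read from this count.

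The 5 H3.1 probe sets ranged from 181.2 to 1233 in replicate 1 and from 161.7 to 1161 in replicate 2, with medians of 603.7 and 647.5. In replicate 2, 4 of them were lower and 1 higher, with ratios from 0.690 to 1.23 and a median ratio of 0.893. The 3 H3.3 probe sets were at 1327, 1999 and 2175 in replicate 1 and at 1761, 3065 and 3607 in replicate 2. All 3 had the higher deposited signal in replicate 2, by 1.33-fold to 1.66-fold. The 5 H4 probe sets ranged from 125.0 to 2114 in replicate 1 and from 93.5 to 2859 in replicate 2, and 3 were higher and 2 lower in replicate 2.

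Probe sets of the same genes thus disagreed in direction for H3.1 and for H4. The direction of H3.3 also depended on the scale. After quantile normalization all 3 H3.3 probe sets were lower in replicate 2, with a median log2 ratio of -0.21 against 0.62 before. On that scale 1 of the 5 H3.1 probe sets and 2 of the 5 H4 probe sets were higher in replicate 2, with medians of -0.58 and -0.36. No direction is drawn for H3.1, H3.3 or H4.

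**Figure D3:**
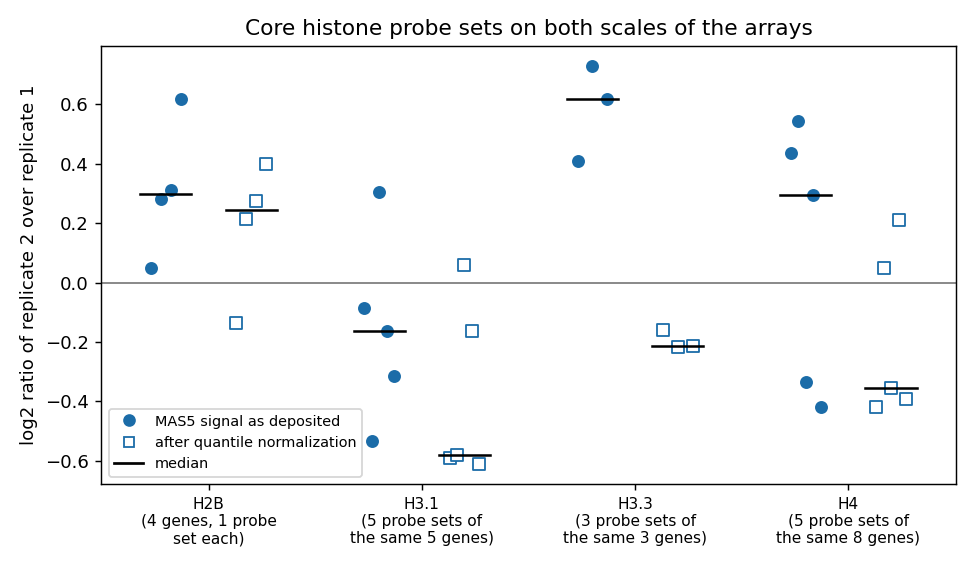
Log2 ratio of replicate 2 over replicate 1 for the probe sets of 4 H2B genes and for the shared H3.1, H3.3 and H4 probe sets, with deposited signals (filled circles), after quantile normalization (open squares) and medians (black bars). The H3.3 median turns from 0.62 to -0.21 between the scales, while 3 of the 4 H2B genes stay above 0 on both.

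Other chromatin genes from a list of 87 entries were looked up, covering Polycomb proteins, remodelling factors, the FACT complex, histone chaperones, cohesin and condensin, DNA methylation and HMG proteins. Of the entries 8 had a probe set to themselves and were no members, and each of these 8 passed the bound in both replicates, against 60.1% of all 13356 genes. *ASF1B*, already among the members, was another, and 78 have no such probe set in the annotation used here, including all 20 Polycomb entries. With the probe set median or the *B. subtilis* controls as bound, 7 of the 8 passed. Because so few of the 87 entries were measured, no trait of chromatin genes is read from these counts. The 4 remodelling genes were the ATPase genes *CHR17* (393.7 and 379.0) and *INO80* (346.3 and 301.0) and the SWI/SNF subunit genes *SWI3A* (79.1 and 113.0) and *BSH* (182.1 and 372.0). On both scales *CHR17* and *INO80* had the lower and *SWI3A* and *BSH* the higher signal in replicate 2. Of all genes above the bound, 60.2% had the higher deposited signal there. The log2 ratios of *CHR17* (-0.05) and *INO80* (-0.20) were small beside the SD of 0.68 over those genes. No difference between ATPase and subunit genes is read from them.

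The HMG proteins *3xHMG-box1* and *3xHMG-box2* bind mitotic chromosomes. *3xHMG-box1* was at 18.2 and 37.1, near the bounds of 7.21 and 18.3, and *3xHMG-box2* was at 426.7 and 635.0. The signal of *3xHMG-box1* was 2.04-fold higher in replicate 2, but the bound was higher there too, so no difference is read. Its signals were also below the probe set median of 50.0 and the *B. subtilis* bounds of 27.9 and 69.4. *DME*, a DNA demethylase gene best known from the central cell of the ovule, was at 137.6 and 116.3 on the probe set with its highest mean. Its other probe sets read 15.1 and 21.6, and 41.9 and 7.41, and the latter was below the bound in replicate 2, so its probe sets disagreed. *ASF1A*, given above beside *ASF1B*, was the last of the 8.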

How the data were processed

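The authors obtained and normalized the array signals with MAS5, and the deposited values are intensities on a linear scale. The submitters' processing notes name R 2.7.2. Of 22810 probe sets, the platform annotation gives 1 gene to 13513, several to 503 and none to 8794. Of the 13513, 13436 were found by gene ID in the RefSeq table for TAIR10.1, from which names, descriptions (its synonym field) and gene order were read. Where a gene had several probe sets the brightest on average was kept, which left 13356 genes. A gene passed if both of its signals were over the bound of their array, which is the 95th percentile of *MGH3*, *ANX1*, *ANX2*, AT5G07230, *EXPA7* and *EXPA18*. No pseudocount was added to ratios, and no detection calls were used. All members are named, with the measured genes of the chromatin list. *HTB1* and *HTB11* were added later. Members and lists were chosen with earlier results of these data known. Alternatives were other bounds, quantile normalization, the lowest probe set of a gene, each array alone, a pseudocount of 16 and other treatments of low signals. Counting and normalization were tested on simulated data. Promoter motifs were planned and not analysed here, and no sequence was used. Python 3.11.15, numpy 2.4.6, pandas 2.3.3 and matplotlib 3.10.9 were used. Each SD rests on 2 arrays, which limits the precision.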

Additional observations from a re-analysis of the deposited data

How the results depend on the processing

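The count of members above background was 6 or 7 of 9 under every bound tried, after quantile normalization, with the lowest probe set and in each array alone. *HTR12* was the member lost, either with the probe set median or with the *B. subtilis* controls serving as bound, and both left 2 of 4 core histone genes and 7 of 8 other chromatin genes. The other chromatin gene lost under both was *3xHMG-box1*. With *HTB1* and *HTB11* added, a choice made after seeing the data, 5 of 6 core histone genes were above the bound. Over the single arrays the median log2 signal of all members ranged from 7.27 to 7.88 and that of core histone genes from 6.65 to 6.88. The median log2 ratio of the 4 core histone genes was 0.26 and turned to -0.10 after quantile normalization, where *MGH3*, which is below the bound, is included. Without *MGH3* it was 0.31 and 0.27, and no sign changed. No paired analysis was possible because there is 1 group. The shares of core histone promoters with known motifs were not run. The bound rests on 6 genes, and signals near it cannot be called with 2 arrays.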
